A study of Mus musculus with 8 samples.

Results

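The 38 genes described here are stimulated by type I interferon, and were chosen by symbol, from Ifit1 to Slfn8, for their known place in the interferon response. The choice was made with earlier results of these data known. All 38 were present among the 24787 gene symbols counted in single cells of 8 MC38 tumors. MC38 is a colon carcinoma cell line of C57BL/6 origin, grown here under the skin of immunocompetent mice, which the methods give as 8-week-old female C57BL/6J. The mice had received saline (3 tumors), free R848 (3 tumors) or medium R848-BPDs (2 tumors), and tumors were taken 24 hours later. R848 (resiquimod) is a small-molecule agonist of Toll-like receptors 7 and 8 (TLR7/8), and R848-BPDs are bottlebrush polymers that carry it on a cleavable linker, with "medium" naming the linker of intermediate release rate. The methods set the dose of R848 to be the same for both forms in the tumor imaging and therapy studies, and do not restate it for these 8 mice. Each tumor came from 1 mouse and gave 1 Seq-Well library, and the tumor was the replicate throughout.

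Type I interferons (interferon-α and interferon-β) bind the receptor formed by IFNAR1 and IFNAR2, whose kinases JAK1 and TYK2 phosphorylate STAT2. STAT2 and IRF9 are subunits of ISGF3, which binds interferon-stimulated response elements in promoters and switches on genes that block viral replication, sense nucleic acids or feed back on the pathway. In myeloid cells, engagement of TLR7 in endosomes leads through MyD88 and IRF7 to type I interferon, and the interferon released can act on neighboring cells that lack the receptor, tumor cells included. Several members share a chromosome with related or partner genes of the list: Ifit1, Ifit2 and Ifit3 on chromosome 19, Rsad2 and Cmpk2 on chromosome 12, Mx1 and Mx2 on chromosome 16, Slfn5 and Slfn8 on chromosome 11, Ifi204 and Ifi205 on chromosome 1, and Oas1a, Oas2, Oas3, Oasl1 and Oasl2 on chromosome 5 (GRCm38). Reads of close relatives could not be told apart from the counts alone, and Mx2 is annotated as a polymorphic pseudogene in GENCODE vM21.

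To connect the list to its promoters, the letters GAAA, any 2 bases and GAAA, the core of the interferon-stimulated response element, were searched on both strands from 250 bases before to 50 bases after each RefSeq transcription start (GRCm38.p6). Of the 38 members, 29 had a promoter entry, and 16 of these (55.2%) held the letters, against 3.99% of the 27025 genes in the promoter table. The 25 matches overlapped in part, and 18 of them, in 12 members, lay wholly upstream of the start. The stretches below are shown because these 6 genes carry the comparisons that follow, and the capitals mark these letters or their reverse complement, TTTC, any 2 bases and TTTC, printed 5′ to 3′ along the gene's strand.
Isg15 (chr4:156200871-156200900, minus strand): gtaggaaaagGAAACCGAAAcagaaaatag
Ifit1 (chr19:34640794-34640823, plus strand): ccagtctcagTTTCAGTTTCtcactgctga
Rsad2 (chr12:26456553-26456582, minus strand): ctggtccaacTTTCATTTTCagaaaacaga
Bst2 (chr8:71537577-71537606, minus strand): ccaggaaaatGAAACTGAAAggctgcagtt
Slfn5 (chr11:82951937-82951966, plus strand): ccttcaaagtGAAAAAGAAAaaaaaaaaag
Ifi205 (chr1:174031870-174031899, minus strand): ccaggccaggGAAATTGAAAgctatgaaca
No match in this window was found for 13 members, among them Cmpk2, Oasl1, Oasl2, Herc6 and Ifit2, and 9 had no entry, among them Usp18, Mx1 and Mx2. A match describes letters only and is not evidence of binding.

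After the cell limits of the study's methods, and after removing 23 barcodes that occurred in more than 1 library, 9827 cells remained, with 5867590 to 12422614 UMIs per tumor and a median of 3252 to 6995 UMIs per cell. Cells were assigned by marker scores that contained no member of the list, and the classes are called gated rather than named. MC38-gated cells (1483) were gated on Mtap, Rhox5, Col6a2 and Fam159b. The keratins Krt8 and Krt18, also listed as markers, were found in 0.0204% and 0.0916% of all cells and were not used. Macrophage-gated and monocyte-gated cells together made 5351, DC-gated cells 448, T-gated cells 368 and NK-gated cells 746, while 1081 cells passed no gate. CD45+ and CD45− cells had been loaded 9 to 1, so shares of MC38-gated cells reflect loading. Counts were summed per tumor and class, and levels are given in CPM, counts scaled to the total of the class with edgeR's normalization factors. In this 3′ counting assay a level compares 1 gene between samples or classes and not 1 gene with another. A member was called when edgeR's quasi-likelihood test over all genes of the class gave a Benjamini-Hochberg adjusted p under 0.05, and "rose" and "fell" are used of called members only. The comparisons with saline share the same saline tumors, and those with medium R848-BPDs share the same 2 tumors.

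To see where the list was expressed, the CPM of the 38 members was summed. After saline the sum was highest in monocyte-gated cells (20499 ± 2782 CPM, SD, n = 3), followed by macrophage-gated (9785 ± 429 CPM), DC-gated (8635 ± 2835 CPM), MC38-gated (6289 ± 217 CPM), T-gated (5118 ± 1724 CPM) and NK-gated cells (2510.5 ± 435 CPM). The ranges of the 3 saline tumors did not overlap between monocyte-gated and macrophage-gated cells. They did overlap between macrophage-gated and DC-gated, between DC-gated and MC38-gated, and between MC38-gated and T-gated cells, but not between T-gated and NK-gated cells. In macrophage-gated cells the sum was 9355 to 10213 CPM after saline, 12547 to 15529.9 CPM after free R848, and 13055 and 20129 CPM after medium R848-BPDs. Every treated tumor was thus above every saline tumor, while the 2 forms of R848 overlapped. In MC38-gated cells it was 6141 to 6538 CPM after saline, 6683 to 7714 CPM after free R848, and 8319.6 and 11872 CPM after medium R848-BPDs. Here the 3 groups were fully ordered, with medium R848-BPDs replicate 2 farthest from the rest. Monocyte-gated cells showed no such order, at 17388 to 22751 CPM, 18667 to 24715 CPM, and 19429 and 15905 CPM.

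**Figure D1:**
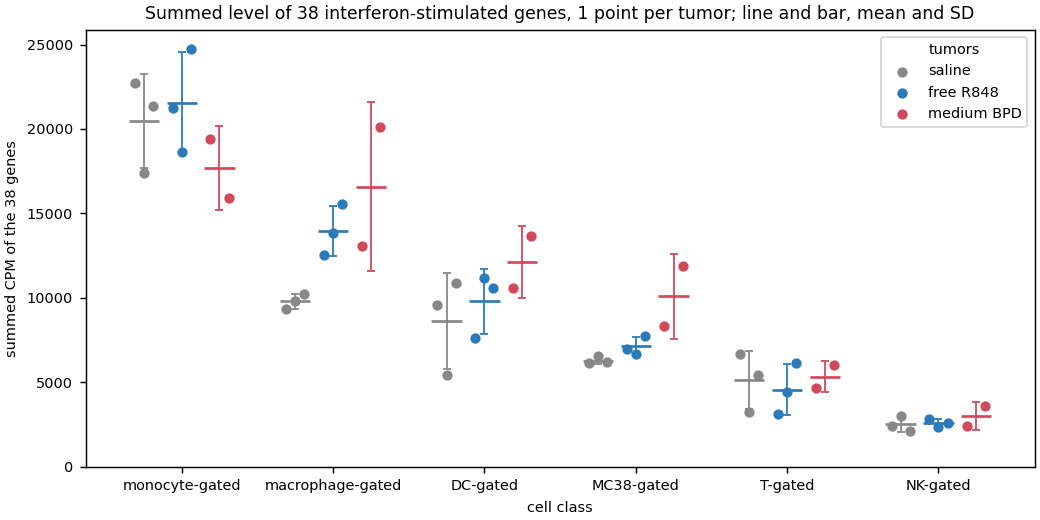
Summed level of the 38 interferon-stimulated genes (CPM) in 6 gated classes, with 1 point per tumor and a line and bar for the mean and SD of each treatment. Macrophage-gated cells of all treated tumors sit above the saline tumors, MC38-gated cells reach 11872 CPM in medium R848-BPDs replicate 2, and monocyte-gated cells overlap between treatments.

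In the MC38-gated tumor cells, 13 of the 38 members rose after medium R848-BPDs relative to saline and none fell by the same test, in a comparison where 2.79% of the 10544 genes tested were called in either direction. Of the 38, 37 had a positive log2 fold change and 31 had an unadjusted p under 0.05. The median log2 fold change was 0.64, against 0.00 over all genes tested. By role, 6 of 11 antiviral effectors were called, 3 of 4 genes of the ISG15 system, 2 of 5 OAS genes, 1 of 7 nucleic acid sensors and 1 of 8 other regulators. The 3 transcription factors Irf7, Irf9 and Stat2 had a median of 0.48 and did not pass the test (Stat2, log2 fold change 0.78, SE 0.21, adjusted p = 0.0693). Levels of 24 members did not overlap between the 2 treated and 3 saline tumors and were higher after treatment, against 14.5% of all genes tested.

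Among the antiviral effectors, Rsad2, which encodes viperin, an enzyme that makes a chain-terminating nucleotide, was at 361, 327 and 433 CPM after saline, 353, 327 and 515 CPM after free R848, and 793 and 1028 CPM after medium R848-BPDs. Both medium R848-BPD tumors were above all 6 others, and saline and free R848 overlapped (log2 fold change 1.3, SE 0.18, adjusted p = 0.00237 against saline). Its neighbor Cmpk2, a mitochondrial nucleotide kinase, was at 108, 107 and 86.6 CPM after saline, 89.1, 75.2 and 100.4 CPM after free R848, and 178 and 232 CPM after medium R848-BPDs. The same 2 tumors again stood above the rest (log2 fold change 1.00, SE 0.15, adjusted p = 0.00291). Ifit1, whose product binds viral RNA that lacks a 2′-O-methylated cap, was at 126, 153 and 150.4 CPM after saline, 109, 112 and 153 CPM after free R848, and 255 and 373 CPM after medium R848-BPDs (log2 fold change 1.15, SE 0.17, adjusted p = 0.00291). Both treated tumors were higher than every other tumor. Bst2, or tetherin, which holds budding virus at the cell surface, was at 811, 704 and 683 CPM after saline, 1133, 1298 and 1061 CPM after free R848, and 1199.9 and 1535 CPM after medium R848-BPDs. It differs from the 3 genes above in that the free R848 tumors were also above all saline tumors, and the 2 forms of R848 overlapped (log2 fold change 0.90, SE 0.13, adjusted p = 0.0028 for medium R848-BPDs and log2 fold change 0.67, SE 0.12, adjusted p = 0.0837 for free R848, each against saline).

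Mx1 and Mx2 belong to a family of dynamin-like antiviral GTPases, and their alleles in C57BL/6 mice are known to be defective. Both were high in 1 tumor. Mx1 was at 62.0, 60.0 and 62.4 CPM after saline, 44.7, 54.3 and 80.9 CPM after free R848, and 74.1 and 235 CPM after medium R848-BPDs. Mx2 was at 34.6, 56.9 and 35.5 CPM after saline, 49.7, 73.7 and 57.2 CPM after free R848, and 49.4 and 219.6 CPM after medium R848-BPDs. For both genes only medium R848-BPDs replicate 2 stood clear of the free R848 tumors, and for Mx2 replicate 1 lay within the saline range. The calls (log2 fold change 1.39, SE 0.34, adjusted p = 0.0428 for Mx1 and log2 fold change 1.65, SE 0.41, adjusted p = 0.048 for Mx2) were lost without that replicate, with log2 fold changes of 0.28 and 0.14, and with DESeq2, at adjusted p = 0.198 and 0.188. The call for Mx1 was also lost without any saline tumor or without free R848 replicate 2 or 3 (adjusted p up to 0.126), and that for Mx2 without saline replicate 1 or 3 or any free R848 tumor (adjusted p up to 0.17).

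In the ISG15 system, Isg15, a ubiquitin-like modifier, was at 172, 129 and 155 CPM after saline, 177, 214 and 254 CPM after free R848, and 219 and 351 CPM after medium R848-BPDs. Both forms of R848 were above saline here, and replicate 1 of medium R848-BPDs lay inside the free R848 range (log2 fold change 0.93, SE 0.19, adjusted p = 0.0208 against saline). Usp18, the protease that removes ISG15 and restrains IFNAR2 signaling, was at 106, 116 and 139 CPM after saline, 112, 102 and 158 CPM after free R848, and 172 and 272 CPM after medium R848-BPDs. Only the medium R848-BPD tumors were above all others (log2 fold change 0.93, SE 0.20, adjusted p = 0.0242). Herc6, the main ISG15 ligase in mice, was at 77.9, 116 and 92.3 CPM after saline, 111, 96.4 and 129.7 CPM after free R848, and 181 and 212 CPM after medium R848-BPDs, with the same order (log2 fold change 1.02, SE 0.17, adjusted p = 0.00506). Oasl1 and Oasl2, OAS-like proteins of which Oasl1 limits translation of Irf7, rose with log2 fold change 1.24, SE 0.24, adjusted p = 0.0142 and log2 fold change 0.79, SE 0.13, adjusted p = 0.00513. Ifih1, the RNA sensor MDA5, was at 143, 146 and 148 CPM after saline, 140.0, 131 and 145 CPM after free R848, and 184 and 285 CPM after medium R848-BPDs, and free R848 overlapped saline (log2 fold change 0.71, SE 0.15, adjusted p = 0.0249). Ifi35, an interferon-induced leucine zipper protein, also rose (log2 fold change 0.61, SE 0.13, adjusted p = 0.0251).

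Of the members not called in this comparison, Slfn5, a Schlafen protein that acts on transcription in the nucleus, had the only negative value. It was at 23.6, 22.8 and 21.3 CPM after saline, 8.29, 12.3 and 10.5 CPM after free R848, and 6.98 and 13 CPM after medium R848-BPDs. All 5 treated tumors, of either form, were below all 3 saline tumors, and neither comparison passed the test (log2 fold change −1.08, SE 0.29, adjusted p = 0.0589 for medium R848-BPDs and log2 fold change −1.15, SE 0.27, adjusted p = 0.209 for free R848). The 6 monocyte markers in this class had the same order, at 117 to 169 CPM after saline and 29.7 to 103 CPM in the treated tumors. Their part in the values of Slfn5 was not tested. Ifit2, the partner of Ifit1 and Ifit3 in an RNA-binding complex, was at 73.1, 67.3 and 58.2 CPM after saline, 47.6, 40.9 and 61.4 CPM after free R848, and 48.3 and 82.4 CPM after medium R848-BPDs, with overlapping groups (log2 fold change 0.00, SE 0.20, adjusted p = 1). Ifitm3, which blocks virus entry at endosomes, gave log2 fold change 0.22, SE 0.12, adjusted p = 0.416, and Irf7, the factor that amplifies interferon production, gave log2 fold change 0.48, SE 0.16, adjusted p = 0.129. Samhd1, a dNTP hydrolase, and Ifi204, a DNA sensor, were at 165 to 342 CPM and 43.9 to 118 CPM over the 8 tumors and were not called.

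**Figure D2:**
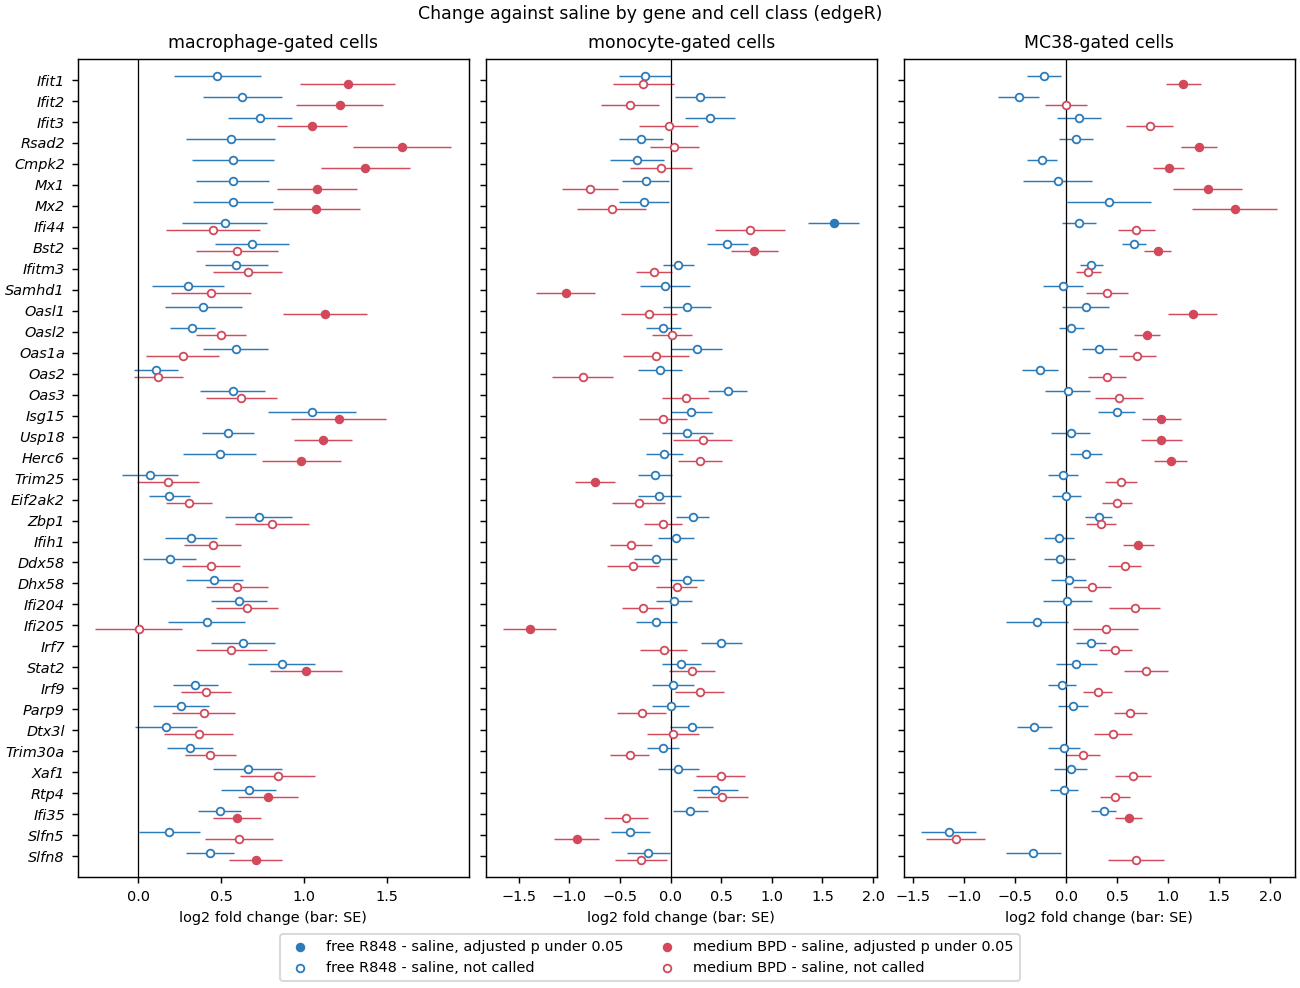
Log2 fold change ± SE of each member in macrophage-, monocyte- and MC38-gated cells for free R848 against saline and medium R848-BPDs against saline, with filled points for an adjusted p under 0.05. In MC38-gated cells 13 members are filled for medium R848-BPDs and 0 for free R848. In monocyte-gated cells 13 of 38 values for medium R848-BPDs are above 0.

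After free R848, 0 members were called in MC38-gated cells by edgeR, where 0.0664% of all genes were called. In edgeR's test 7 had an unadjusted p under 0.05, and DESeq2 called 1 member. The median log2 fold change was 0.02, and 22 of 38 values were positive. Levels of 5 members did not overlap and were higher than after saline (Isg15, Irf7, Bst2, Ifi35 and Ifitm3, against 7.86% of all genes), and Slfn5 and Slfn8 did not overlap and were lower (7.53%). The share of members that were lower was not above that over all genes. A direct comparison of the 2 forms called 9 members, all higher after medium R848-BPDs (1.08% of all genes were called). The median was 0.59 and 37 of 38 values were positive. The 9 were Ifit1 (log2 fold change 1.36, SE 0.17, adjusted p = 0.00227), Cmpk2 (log2 fold change 1.24, SE 0.15, adjusted p = 0.00207), Rsad2 (log2 fold change 1.20, SE 0.18, adjusted p = 0.00813), Mx1 (log2 fold change 1.47, SE 0.33, adjusted p = 0.0497), Oasl1, Oasl2, Usp18, Herc6 and Ifih1. In this comparison 21 members were higher without overlap, against 15.4% of all genes.

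These counts depended on medium R848-BPDs replicate 2, which gave 417 of the MC38-gated cells, while replicate 1 gave 108 and the other tumors 70 to 244. Without replicate 2, only Bst2 and Rsad2 were called against saline, the 2 members whose call held without each of the 8 tumors in turn, and the median was 0.27. Without replicate 1, 25 were called and the median was 0.84, and without saline replicate 1, 7 were called. Isg15 and Ifi35 were also lost without saline replicate 2 (adjusted p = 0.0526 and 0.052), and Ifih1 without saline replicate 3 (0.0511). Against free R848, 2 members (Ifit1 and Cmpk2) were called without medium R848-BPDs replicate 2, 23 without replicate 1, and 3 without free R848 replicate 1 or 2. With no filter on low counts, 29 were called against saline and 26 against free R848, and 3 for free R848 against saline. With the same number of cells drawn from every tumor, 3 members were called against saline and 2 against free R848. The 8 macrophage markers summed to 247, 947 and 413 CPM after saline, 248, 325 and 140.3 CPM after free R848, and 137 and 108 CPM after medium R848-BPDs, with both medium R848-BPD tumors below the other 6, against 18431 CPM or more in macrophage-gated cells, and none of the 8 was at 0. The 6 monocyte markers summed to 169, 117 and 131 CPM after saline, 103, 89.2 and 52.2 CPM after free R848, and 77.8 and 29.7 CPM after medium R848-BPDs. All treated tumors were thus below all saline tumors for these markers. Fibroblast markers summed to 661 to 1645 CPM, at 1528 and 749 CPM after medium R848-BPDs. What they add to the result was not tested. Tlr7 itself was at 0.744 to 5.68 CPM in MC38-gated cells, against 71.5 to 113 CPM in macrophage-gated cells.

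**Figure D3:**
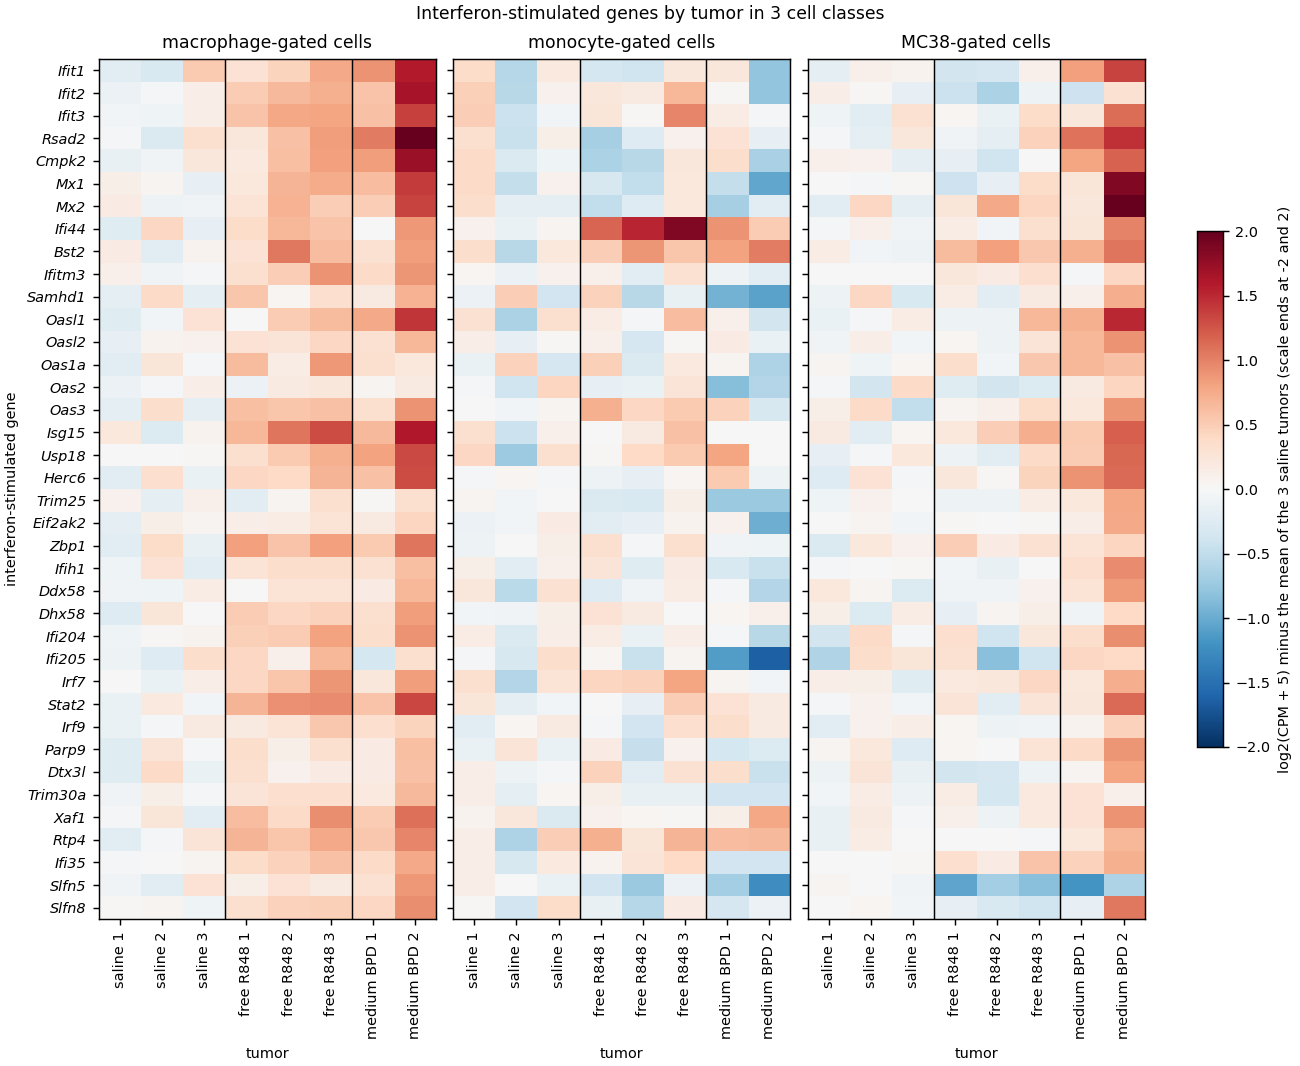
Level of each of the 38 members in each tumor as log2(CPM + 5) minus the mean of the 3 saline tumors, for macrophage-, monocyte- and MC38-gated cells, on a color scale from −2 to 2. In MC38-gated cells the 2 medium R848-BPD columns are above saline for most members and replicate 2 is the strongest, while Slfn5 is below saline in all 5 treated tumors.

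In macrophage-gated cells every member had a positive value after both forms of R848, and members passed the test after medium R848-BPDs. The split of monocytes from macrophages was chosen after seeing that the share of monocyte-gated cells differed between tumors. It went by the higher marker score, with no lead required. Relative to saline, 15 of 38 members rose after medium R848-BPDs and none fell (8.32% of 10388 genes were called in either direction). All 38 log2 fold changes were positive, with a median of 0.61 against −0.01 over all genes, and 29 members were higher without overlap, against 21% of all genes. After free R848 all 38 values were positive as well, with a median of 0.50 and 22 members higher without overlap (10.1%). After free R848 edgeR called 0 members, in a comparison where 0% of genes were called, while 22 members had an unadjusted p under 0.05 and DESeq2 called 4. With no filter on low counts, edgeR called 19 members after free R848, 24 after medium R848-BPDs and 6 between the 2 forms. Between the 2 forms edgeR called 0 members (1.33% of all genes), with 5 at an unadjusted p under 0.05 and 1 called by DESeq2, and 6 were higher without overlap after medium R848-BPDs (Ifit1, Rsad2, Cmpk2, Usp18, Oasl1 and Slfn5, against 17.3%). These 6 of 38 were a share near that over all genes.

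By role, 7 of 11 antiviral effectors were called, with a median of 1.07, beside 3 of 4 genes of the ISG15 system (1.05), 1 of 3 transcription factors, 3 of 8 regulators and 1 of 5 OAS genes. The 7 sensors had a median of 0.45 and did not pass the test, with Zbp1, a sensor of Z-form nucleic acid, nearest to it (log2 fold change 0.80, SE 0.22, adjusted p = 0.0569). Rsad2 was at 500.1, 415 and 642 CPM after saline, 598, 768 and 920.2 CPM after free R848, and 1059 and 2057 CPM after medium R848-BPDs. Both medium R848-BPD tumors were above all others, and free R848 replicate 1 lay below the highest saline tumor (log2 fold change 1.59, SE 0.30, adjusted p = 0.0155 against saline). Ifit2 was at 356, 383 and 426 CPM after saline, 552, 611 and 636 CPM after free R848, and 578 and 1225 CPM after medium R848-BPDs. All treated tumors were above saline, and replicate 1 of medium R848-BPDs lay within the free R848 range (log2 fold change 1.21, SE 0.26, adjusted p = 0.0255). Usp18 was at 147, 147 and 149 CPM after saline, 187, 214 and 245 CPM after free R848, and 263 and 377 CPM after medium R848-BPDs. The 3 groups followed each other without overlap, and this was the member with the lowest adjusted p in this comparison (log2 fold change 1.11, SE 0.17, adjusted p = 0.0087). Stat2, a subunit of ISGF3, was at 158, 202 and 167 CPM after saline, 284, 336 and 342 CPM after free R848, and 263 and 449 CPM after medium R848-BPDs. Every treated tumor was above saline, and the form did not separate them (log2 fold change 1.01, SE 0.22, adjusted p = 0.0257 for medium R848-BPDs and log2 fold change 0.86, SE 0.20, adjusted p = 0.144 for free R848). Isg15 was at 182, 128 and 164 CPM after saline, 252, 334 and 395 CPM after free R848, and 248 and 483 CPM after medium R848-BPDs, with the same pattern (log2 fold change 1.21, SE 0.29, adjusted p = 0.0353 and log2 fold change 1.05, SE 0.26, adjusted p = 0.16).

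Cmpk2 (log2 fold change 1.37, SE 0.27, adjusted p = 0.0196), Ifit1 (log2 fold change 1.26, SE 0.29, adjusted p = 0.0307), Ifit3 (log2 fold change 1.04), Mx1 (1.07), Mx2 (1.07), Oasl1 (1.12), Herc6 (0.98), the receptor-transport protein Rtp4 (0.78), Slfn8 (0.71) and Ifi35 (0.59) made up the rest of the called members after medium R848-BPDs. Of the 8 members with the highest mean CPM in monocyte- and macrophage-gated cells, Rsad2 and Ifit2 were thus called and 6 were not. Ifitm3 was at 1058, 940.1 and 972 CPM after saline, 1241, 1388 and 1846 CPM after free R848, and 1293 and 1834 CPM after medium R848-BPDs, and all treated tumors lay above saline (log2 fold change 0.66, SE 0.21, adjusted p = 0.0821). Irf7 was at 972, 881 and 1057 CPM after saline, 1291, 1421 and 1792 CPM after free R848, and 1127 and 1735 CPM after medium R848-BPDs, also without overlap between treated and saline tumors (log2 fold change 0.56, SE 0.21, adjusted p = 0.133). Ifi204 gave log2 fold change 0.65, SE 0.18, adjusted p = 0.0597, Bst2 log2 fold change 0.59, SE 0.25, adjusted p = 0.163, Samhd1 log2 fold change 0.44, SE 0.24, adjusted p = 0.284 and Slfn5 log2 fold change 0.60, SE 0.20, adjusted p = 0.0983.

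As in the tumor cells, the count after medium R848-BPDs rested on replicate 2. Without it 0 of 38 members were called by edgeR, although 36 values were positive and the median was 0.35. Usp18 was lost only there (adjusted p = 0.0699). Without saline replicate 1 the count was 1, without free R848 replicate 2 it was 5, without free R848 replicate 3 it was 9, and without medium R848-BPDs replicate 1 it was 19. With saline and medium R848-BPDs alone in the fit it was 1. Markers of other cells moved in this class. The 5 osteoclast markers summed to 159, 333 and 592 CPM after saline, 717, 636 and 644 CPM after free R848, and 1292 and 967 CPM after medium R848-BPDs, so that both medium R848-BPD tumors were above all others. The 6 monocyte markers summed to 1834, 723 and 1329 CPM after saline, 1863, 2092 and 2208 CPM after free R848, and 1148 and 1441 CPM after medium R848-BPDs, and were inside the saline range after medium R848-BPDs. Their part in the result was not tested.

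Monocyte-gated cells, in which the summed level of the list was highest among the saline tumors' classes, differed from macrophage-gated cells in the signs of the values. After medium R848-BPDs 5 members were called (9.84% of 6463 genes in either direction, 4.39% as higher and 5.45% as lower), of which only Bst2 rose, and 13 of 38 values were positive, with a median of −0.15 against 0.04 over all genes. The share of members called in either direction was near that over all genes. Bst2 was at 556, 294 and 504 CPM after saline, 612, 806 and 643 CPM after free R848, and 762 and 887 CPM after medium R848-BPDs, and both medium R848-BPD tumors were above saline (log2 fold change 0.83, SE 0.23, adjusted p = 0.0325). Ifi205, a DNA sensor of the PYHIN family, fell, at 531, 433 and 688 CPM after saline, 553, 395 and 564 CPM after free R848, and 247 and 171 CPM after medium R848-BPDs. Both medium R848-BPD tumors were below all 6 others (log2 fold change −1.39, SE 0.26, adjusted p = 0.0024 against saline and log2 fold change −1.25, SE 0.26, adjusted p = 0.0078 against free R848). Slfn5 was at 1147, 1033 and 955 CPM after saline, 799, 622 and 958 CPM after free R848, and 650.3 and 437 CPM after medium R848-BPDs (log2 fold change −0.93, SE 0.22, adjusted p = 0.0143 against saline). Its groups after saline and medium R848-BPDs did not overlap. Samhd1 (log2 fold change −1.04, SE 0.29, adjusted p = 0.0331) and Trim25, a ubiquitin and ISG15 ligase (log2 fold change −0.75, SE 0.20, adjusted p = 0.0242), also fell. Against saline, 4 members were higher without overlap (21.5% of all genes) and 11 lower (20.7%), and against free R848 1 was higher (19.3%) and 12 lower (20.3%), with 1 member, Ifi205, called (6.33%).

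After free R848 the only member called in monocyte-gated cells was Ifi44, an interferon-induced protein, in a comparison where 0.557% of genes were called. It was at 34.0, 28.9 and 33.2 CPM after saline, 77.5, 101 and 128 CPM after free R848, and 64.1 and 47.4 CPM after medium R848-BPDs. All 3 free R848 tumors were above all others (log2 fold change 1.61, SE 0.25, adjusted p = 0.00902), and the call was lost without saline replicate 1 (adjusted p = 0.0836). Monocyte-gated cells numbered 286, 36 and 241 after saline, 111, 105 and 124 after free R848, and 58 and 51 after medium R848-BPDs. Without medium R848-BPDs replicate 2 edgeR made none of the calls against saline, without replicate 1 there were 2, and without saline replicate 1 there were 3. Their own 6 markers summed to 8574, 7675 and 8298 CPM after saline, 12059, 10053 and 9628 CPM after free R848, and 5682 and 5484 CPM after medium R848-BPDs, lowest after medium R848-BPDs, and the 5 osteoclast markers were at 495 and 588 CPM there against 55.6 to 179 CPM in the other tumors. What these shifts add to the result was not tested.

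When the change itself was compared between the 2 classes, by a term for class and treatment in a fit that held each tumor's own level, 20 of 38 members had a lower signed log2 fold change in monocyte-gated than in macrophage-gated cells after medium R848-BPDs relative to saline (2.9% of all genes were called). Of these, Ifi205, Samhd1, Slfn5 and Trim25 fell in monocyte-gated cells and were not called in macrophage-gated cells. The median difference was −0.93 on the log2 scale, and 36 of 38 differences were negative. Mx1 (−1.86, SE 0.31, adjusted p = 0.000516), Slfn5 (−1.59, SE 0.28, adjusted p = 0.000698), Rsad2 (−1.54, SE 0.27, adjusted p = 0.000847) and Samhd1 (−1.52, SE 0.23, adjusted p = 0.000125) were among them. Mx1 was at 717, 393 and 585 CPM after saline, 439.7, 389 and 632 CPM after free R848, and 391 and 266 CPM after medium R848-BPDs in monocyte-gated cells, where every treated tumor was below the highest saline tumor, and at 175, 169 and 143 CPM after saline, 188, 262 and 274 CPM after free R848, and 251 and 437 CPM after medium R848-BPDs in macrophage-gated cells, where all treated tumors were above saline. Rsad2 was at 2454, 1437 and 2126 CPM after saline, 1235, 1637 and 2075 CPM after free R848, and 2380.2 and 1741 CPM after medium R848-BPDs in monocyte-gated cells, with all groups overlapping. Without medium R848-BPDs replicate 2 the count was 2 (Mx1 and Samhd1), without saline replicate 1 it was 7, without saline replicate 3 it was 12, and without medium R848-BPDs replicate 1 it was 27. For the comparison between the 2 forms, only Samhd1 differed (1.31%; −1.14, SE 0.23, adjusted p = 0.00566), and not without free R848 replicate 1 (adjusted p = 0.0722) or medium R848-BPDs replicate 2 (0.185).

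Taken as 1 class, monocyte- and macrophage-gated cells gave fewer calls. After medium R848-BPDs only Usp18 was called (6.18% of 10672 genes), at 192, 143 and 184 CPM after saline, 195, 221 and 263 CPM after free R848, and 266 and 358 CPM after medium R848-BPDs (log2 fold change 0.85, SE 0.19, adjusted p = 0.0373), although 35 of 38 values were positive with a median of 0.39 and 17 members were higher without overlap (20.4% of all genes) and 0 lower (20.2%). After free R848 0 members were called by edgeR and by DESeq2 (0.0187%), with 13 at an unadjusted p under 0.05, 35 positive values, a median of 0.29 and 18 members higher without overlap (9.54%) and 0 lower (8.72%). Between the 2 forms 0 were called by either tool (1.02%), with 1 at an unadjusted p under 0.05. With no filter on low counts edgeR called 15, 7 and 4 members in these 3 comparisons. The Usp18 call was lost without any 1 of saline replicates 1 and 3, any free R848 tumor, or medium R848-BPDs replicate 2, with adjusted p of 0.0532 to 0.289.

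**Figure D4:**
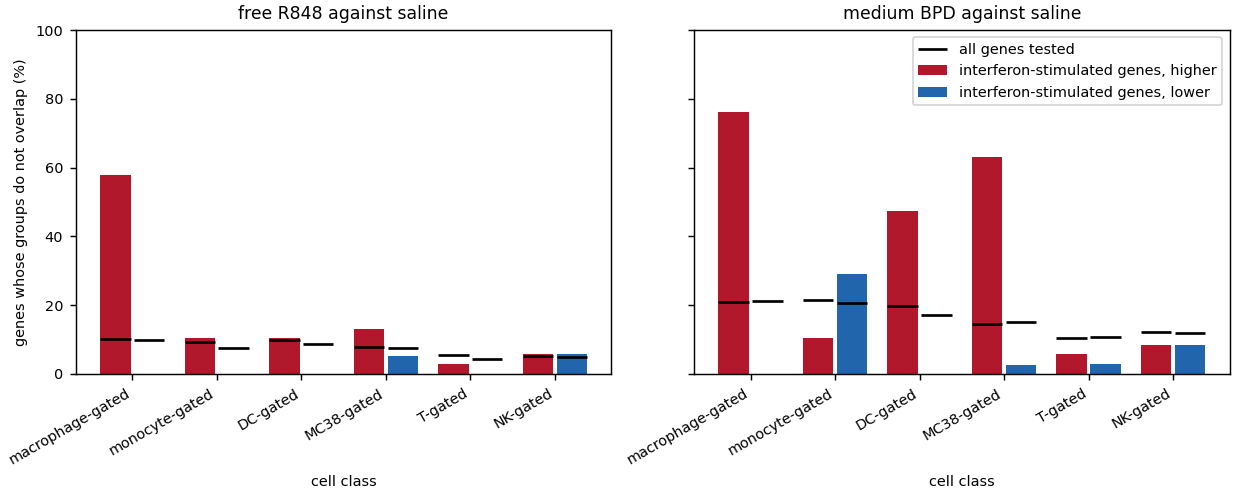
Percent of genes whose levels do not overlap between the treated and saline tumors in 6 gated classes, for free R848 (left) and medium R848-BPDs (right), with bars for the members that were higher or lower and black lines for all genes tested. Members higher without overlap numbered 22 with free R848 and 29 with medium R848-BPDs in macrophage-gated cells, and 5 and 24 in MC38-gated cells.

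In DC-gated cells 5 of 38 members rose after medium R848-BPDs relative to saline (10.6% of 4756 genes were called in either direction and 5.61% as higher), 31 values were positive, and the median was 0.50. The share of members called was near the first of these shares and above the second. Isg15 was at 224, 70.3 and 264 CPM after saline, 339, 480.3 and 482 CPM after free R848, and 509 and 727 CPM after medium R848-BPDs. All treated tumors were above saline (log2 fold change 1.55, SE 0.33, adjusted p = 0.00783). Oasl2 was at 169.9, 123 and 218 CPM after saline, 348, 297 and 305 CPM after free R848, and 441 and 434 CPM after medium R848-BPDs, and the 3 groups were ordered without overlap (log2 fold change 1.29, SE 0.26, adjusted p = 0.00583). Herc6 (log2 fold change 1.5, SE 0.38, adjusted p = 0.0199), Oasl1 (log2 fold change 1.3, SE 0.38, adjusted p = 0.0396) and Xaf1, a proapoptotic zinc finger protein (log2 fold change 1.19, SE 0.35, adjusted p = 0.0412), were the others, and 18 members were higher without overlap (19.9%). Herc6 had 0 counts in saline replicate 2, which held 11 DC-gated cells against 35 to 97 in the other tumors. After free R848 0 members were called by edgeR and by DESeq2 (1.07%), with 5 at an unadjusted p under 0.05, 4 higher without overlap (9.99%) and 0 lower (8.81%), with a median of 0.06. Between the 2 forms 0 were called by either tool (0.357%), with 4 at an unadjusted p under 0.05, 12 higher after medium R848-BPDs without overlap (13.4%) and 0 lower (12.3%), and 35 of 38 values were positive, with a median of 0.43. Without either medium R848-BPD tumor 1 member was called, without saline replicate 1 there were 2, and without saline replicate 3 or free R848 replicate 3 there were 3. The kinds of DC differed between groups. The 5 cDC1 markers summed to 1962, 731 and 1551 CPM after saline, 127, 748 and 613 CPM after free R848, and 168 and 99.3 CPM after medium R848-BPDs. In mature DC-gated cells alone, in a fit without saline replicate 2, which held 6 such cells, 1 member, Oasl1, was called after medium R848-BPDs against saline (3.84%), and edgeR, the tool run there, called 0 after free R848 (0.459%), with 6 at an unadjusted p under 0.05.

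In T-gated and NK-gated cells none of the members that passed the filter on low counts was called. Of 34 members tested in T-gated cells, 0 were called by edgeR or DESeq2 in any of the 3 comparisons (0.038%, 0.095% and 0.057% of all genes for medium R848-BPDs against saline, free R848 against saline and medium R848-BPDs against free R848), with 2, 3 and 3 at an unadjusted p under 0.05. Of the 34, 19, 7 and 27 values were positive in these comparisons, with medians of 0.03, −0.26 and 0.23. With no filter on low counts edgeR called 1 member in each. Of 35 members tested in NK-gated cells, 0 were called by either tool (0.691%, 0.0128% and 0.179%), with 2, 6 and 2 at an unadjusted p under 0.05. Of the 35, 21, 19 and 19 values were positive, with medians of 0.08, 0.02 and 0.07, while the medians over all genes tested lay between −0.0129 and −0.000663 in both classes. T-gated cells numbered 13 to 82 per tumor and NK-gated cells 31 to 165. Levels were low in NK-gated cells, with Rsad2 at 34.7 to 145 CPM, Isg15 at 17.4 to 47.4 CPM and Ifit1 at 5.92 to 42.5 CPM.

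Some members changed differently between classes. For MC38-gated and DC-gated cells after medium R848-BPDs relative to saline, 1 or 2 of 38 members were called per pair of classes. That share was near the one over all genes, so these counts do not set the list apart. The part of the monocyte markers in MC38-gated cells, given above, was not tested for Slfn5. Against macrophage-gated cells, the signed log2 fold change of Slfn5 in MC38-gated cells was lower both after medium R848-BPDs (−1.85, SE 0.25, adjusted p = 0.00165; 4.17% of genes called) and after free R848 (−1.43, SE 0.23, adjusted p = 0.0486; 0.129%). Ifit2 was the other member that differed after medium R848-BPDs (−1.24, SE 0.22, adjusted p = 0.00723), having risen in macrophage-gated cells and given 0.00 in MC38-gated cells. For free R848 the differences were negative for all 38 members, with a median of −0.42, and 21 had an unadjusted p under 0.05. Between the 2 forms edgeR called 0 members for this pair of classes (0.78%), with 14 at an unadjusted p under 0.05, 34 of 38 differences positive and a median of 0.36. Against the combined cells it also called 0 between the forms (0.613%), with 19 at an unadjusted p under 0.05, 37 positive and a median of 0.47. Isg15 (1.11, SE 0.33, adjusted p = 0.0474) and Oasl2 (1.13, SE 0.33, adjusted p = 0.0369) had a higher log2 fold change in DC-gated than in monocyte- and macrophage-gated cells combined (3.53%). Against macrophage-gated cells alone neither was called (Isg15, 0.63, SE 0.34, adjusted p = 0.44; Oasl2, 0.91, SE 0.33, adjusted p = 0.146). There 1 member differed, Cmpk2, whose signed log2 fold change was lower in DC-gated cells (3.07%; −1.51, SE 0.44, adjusted p = 0.0474), and 23 of the 38 differences were negative, with a median of −0.08. The terms of MC38-gated and DC-gated cells against macrophage-gated cells alone were not refitted without single tumors. The calls of Isg15 and Oasl2 against the combined cells were lost without saline replicate 1 or either medium R848-BPD tumor (adjusted p = 0.102 to 0.57), and further without free R848 replicate 3 for Isg15 (0.056) and saline replicate 3 for Oasl2 (0.053). Ifi44 differed between T-gated and the combined cells for the 2 forms of R848 (3.46, SE 0.75, adjusted p = 0.0246; 0.364%), on 63 UMIs in T-gated cells, at 54.1, 5.05 and 95.1 CPM after saline, 5.92, 9.13 and 4.62 CPM after free R848, and 47.4 and 92.8 CPM after medium R848-BPDs. This was not called without medium R848-BPDs replicate 1 (adjusted p = 0.473) or free R848 replicate 3 (0.0543). For free R848 against saline, edgeR called 0 members in the comparison of T-gated with the combined cells (0.0932%), with 10 at an unadjusted p under 0.05. In that of NK-gated cells it called 0 (0.00919%), with 6 at an unadjusted p under 0.05, and 0 between the 2 forms (0.0919%), with 4.

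To describe single cells at equal depth, each cell was thinned to 1000 UMIs. MC38-gated cells then held a median of 5, 6 and 5 member UMIs after saline, 6, 6 and 6 after free R848, and 7 and 10 after medium R848-BPDs. The share of cells with 5 or more members detected was 49.3%, 53.3% and 44.3%, 59.3%, 50.5% and 61.8%, and 63% and 78.9%. Both medium R848-BPD tumors were above all others by either measure. In macrophage-gated cells the medians were 8, 9 and 8, then 11.5, 12 and 12, then 10 and 16 UMIs, with treated tumors above saline and the 2 forms overlapping. The share of MC38-gated cells with a Rsad2 UMI was 18.9%, 21.7% and 20% after saline, 22.7%, 19.3% and 23.6% after free R848, and 28.7% and 43.4% after medium R848-BPDs (62.8%, 73.4% and 57.1% after saline, 72.2%, 66.1% and 70.0% after free R848, and 83.3% and 85.4% after medium R848-BPDs without thinning). In NK-gated cells, where the gene was low, the thinned shares were 3.91%, 9.09% and 5.74% after saline, 4.17%, 6.12% and 13.2% after free R848, and 7.27% and 12.9% after medium R848-BPDs. In each of the 8 tumors the thinned share was higher in MC38-gated than in NK-gated cells. Before thinning, the median was 7803 to 15854 UMIs per MC38-gated cell and 3502 to 7944 UMIs per NK-gated cell.

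The ligands were rarely seen. No UMI of Ifnb1 was found in MC38-gated cells after saline (0 of 148, 244 and 70 cells, which allows shares of cells with a UMI of up to 2.03%, 1.23% and 4.29%, counting error only, and does not limit the share of cells that express the gene). After medium R848-BPDs it gave 5 UMIs in 2 of 108 cells and 27 UMIs in 4 of 417 cells, of which 1 cell held 21, and after free R848 it gave 0, 4 and 2 UMIs. In monocyte- and macrophage-gated cells it gave 6, 1 and 19 UMIs after saline, 2, 3 and 6 after free R848, and 3 and 0 after medium R848-BPDs. The 6 UMIs of Ifna4 in MC38-gated cells lay in 1 cell of medium R848-BPDs replicate 2, and Ifna1 and Ifna2 had 1 UMI each over all cells. No test was run on these counts.

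Around the members stood 46 other genes of the pathway, of which 37 were tested in MC38-gated, 39 in macrophage-gated and 38 in monocyte-gated cells. After medium R848-BPDs relative to saline, 2 were called in MC38-gated cells (1 higher; 2.79% of all genes were called), 2 in macrophage-gated cells (both higher; 8.32%) and 4 in monocyte-gated cells (1 higher; 9.84%). The shares in the 2 myeloid classes were thus near or below those over all genes. Ikbke, the kinase IKKε that acts with TBK1 on interferon regulatory factors, was the one called in both myeloid classes. In macrophage-gated cells it was at 38.8, 43.2 and 38.5 CPM after saline, 46.1, 51.5 and 53.0 CPM after free R848, and 118 and 118 CPM after medium R848-BPDs. Both medium R848-BPD tumors were at more than all others, which lay close together (log2 fold change 1.55, SE 0.12, adjusted p = 0.000284 against saline and log2 fold change 1.24, SE 0.12, adjusted p = 0.00169 against free R848). In monocyte-gated cells its log2 fold change against saline was 1.54 (adjusted p = 0.00127). Tbk1 also rose in macrophage-gated cells (log2 fold change 0.58, SE 0.15, adjusted p = 0.0434). Cxcl10, a chemokine induced by interferons, fell in monocyte-gated cells after medium R848-BPDs (log2 fold change −2.05, SE 0.24, adjusted p = 5.04e-05), as did the receptor chain Ifnar1 (log2 fold change −0.72, SE 0.21, adjusted p = 0.0453) and the kinase Jak2 (log2 fold change −0.85, SE 0.20, adjusted p = 0.0136). In MC38-gated cells the DNA sensor cGAS, listed as Mb21d1, rose (log2 fold change 0.82, SE 0.19, adjusted p = 0.0362), and the phosphatase gene Ptpn6 fell (log2 fold change −1.56, SE 0.32, adjusted p = 0.0202). The macrophage markers in MC38-gated cells were lower as well, at 137 and 108 CPM after medium R848-BPDs against 247, 947 and 413 CPM after saline. Their part in the result for Ptpn6 was not tested.

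Of 10 GTPases that respond foremost to interferon-γ, 4 of 8 tested rose in DC-gated cells after medium R848-BPDs, where 10.6% of all genes were called (Gbp2, log2 fold change 1.73, SE 0.30, adjusted p = 0.00221; Gbp3, log2 fold change 1.99, SE 0.39, adjusted p = 0.00507; Gbp5, log2 fold change 1.82, SE 0.31, adjusted p = 0.00213; Gbp7, log2 fold change 1.08, SE 0.33, adjusted p = 0.046), with a median of 0.91 over the 8. After free R848 relative to saline the median over the same 8 was 0.79, with 0 called (1.07% of all genes). Between the 2 forms it was 0.48, with 0 called (0.357%). In mature DC-gated cells alone, again without saline replicate 2, 2 of 8 were called after medium R848-BPDs relative to saline (Gbp3 and Gbp5; 3.84% of all genes) and the median was 0.49. The cDC1 markers of DC-gated cells, given above, differed between groups, and their part in this result was not tested. The median was 0.79 for the 10 tested in macrophage-gated cells and 0.58 for the 9 tested in MC38-gated cells, where Gbp2 did not pass the test (log2 fold change 0.81, SE 0.72, adjusted p = 0.515 and log2 fold change 0.89, SE 0.39, adjusted p = 0.26). Gbp2, a guanylate-binding protein, was at 100.4, 559 and 137 CPM after saline, 693, 219 and 315 CPM after free R848, and 291 and 653 CPM after medium R848-BPDs in macrophage-gated cells. Saline replicate 2 was above both other saline tumors and 3 of the treated ones. Iigp1, another of these GTPases, rose in monocyte-gated cells with free R848 (log2 fold change 2.46, SE 0.26, adjusted p = 0.000191) and with medium R848-BPDs (log2 fold change 1.32, SE 0.34, adjusted p = 0.0211).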

How the data were processed

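Per the labels, single-cell RNA of 8 tumors was captured by Seq-Well, and the authors deposited UMI counts per gene and cell for each tumor. The submitters' processing notes name bcl2fastq and mm10. The aligner and annotation are not given in the sources used here. Cells with 400 to 10000 genes, under 50000 UMIs and at most 15% mitochondrial UMIs were kept, as in the study's methods. Barcodes found in more than 1 library were removed, and the 67 cells (0.682%) that Scrublet marked (expected rate 0.05) were kept except in an alternative. Classes came from marker scores (lowest score 0.25, lead over the next class 0.1), and Adgre1 and Chil3 were read under their listed symbols Emr1 and Chi3l3. For this lead, monocytes and macrophages counted as 1 class, and the kinds of DC as 1 class. Macrophage-gated and monocyte-gated cells were split from each other by the higher score alone, with no lead required. Mature DC-gated cells were split from other DC-gated cells in the same way. Counts were summed per tumor and class (10 or more cells) and fitted over all genes with edgeR 4.0.16 (quasi-likelihood, TMM, all 3 treatments in 1 fit, Benjamini-Hochberg adjustment over all genes of the class) in R 4.3.3, with DESeq2 1.42.0 as an alternative. Differences of change between classes were fitted as class-by-treatment terms with the tumor as a fixed term, in edgeR as well. Standard errors (SE) were taken as the size of the log2 value over the square root of edgeR's F. Cells were handled with Python 3.11.15, scanpy 1.11.5 and scipy 1.17.1, and thinned to 1000 UMIs for shares. The fits were tested on simulated data with 200 changed genes.

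Members, marker lists and pathway lists were chosen with earlier results of these data known. Genes were named by a rule: the 8 members with the highest mean CPM in monocyte- and macrophage-gated cells, up to 8 called members with the largest change in the medium R848-BPD comparisons of those and of MC38-gated cells, members called in opposite directions, and members called in a class-by-treatment test. Other genes were named after their values were seen. No batch is given in the labels, and p-values measure the spread between these tumors. Intervals and limits cover counting error only. Macrophage-, monocyte- and mature DC-gated fits, and the class terms that use them, were chosen after seeing the data.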

Additional observations from a re-analysis of the deposited data

Results flagged for a closer look

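The results here were picked out because a test of the difference itself, the class-by-treatment term, found that a member changed by another amount in one class than in another. All values are differences between log2 fold changes. For MC38-gated and DC-gated cells after medium R848-BPDs relative to saline, the share of members called was near that over all genes.

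For medium R848-BPDs relative to saline, the signed log2 fold change in MC38-gated cells was lower than in monocyte- and macrophage-gated cells combined for Slfn5 (−1.41, SE 0.32, adjusted p = 0.0349, with 2.93% of all genes called). This was not called without free R848 replicate 1 or 3, either medium R848-BPD tumor or saline replicate 2 (adjusted p = 0.0518 to 0.221). Against macrophage-gated cells alone the differences were −1.85 for Slfn5 and −1.24 for Ifit2, and for free R848 it was −1.43 for Slfn5. In DC-gated cells the difference from the combined cells was 1.11 for Isg15 and 1.13 for Oasl2, and from macrophage-gated cells it was −1.51, SE 0.44, adjusted p = 0.0474 for Cmpk2 (3.07% of all genes called). Between the 2 forms of R848, Ifi44 differed in T-gated cells by 3.46 from the combined cells and by 3.38, SE 0.75, adjusted p = 0.0345 from macrophage-gated cells (0.321%).

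Between monocyte-gated and macrophage-gated cells, the 20 members called for medium R848-BPDs relative to saline were Mx1 (−1.86), Mx2 (−1.65), Slfn5 (−1.59), Ifit1 (−1.56), Ifit2 (−1.56), Rsad2 (−1.54), Samhd1 (−1.52), Cmpk2 (−1.47), Ifi205 (−1.40), Oasl1 (−1.35), Isg15 (−1.24), Ifi35 (−1.09), Oas2 (−1.07), Slfn8 (−1.05), Trim25 (−0.99), Ifi204 (−0.99), Zbp1 (−0.98), Ifih1 (−0.95), Trim30a (−0.91) and Ifitm3 (−0.88). Of these, Mx1 and Samhd1 were called without each tumor in turn. Samhd1 also differed between the 2 forms (−1.14).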

How the results depend on the processing

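Of the 57 counts, 410 alternative values stayed within 1.5 times the reported count and 127 moved beyond it, and of the alternative values of 50 results for named genes, 542 kept their call, 225 lost it and none changed direction. Counts of called members follow, in the order medium R848-BPDs against saline, free R848 against saline, and medium R848-BPDs against free R848 where more than 1 is given. With no filter on low counts there were 15, 7 and 4 in monocyte- and macrophage-gated cells combined, 29, 3 and 26 in MC38-gated cells, 24, 19 and 6 in macrophage-gated cells, and 1 each in T-gated cells, with 2 in DC-gated cells for free R848 and 3 in monocyte-gated cells between the 2 forms. For the class terms no filter gave 4, 2 and 5 (MC38-gated against combined cells), and 5 for free R848 and 5 between the forms (monocyte-gated against macrophage-gated). With DESeq2 there were 4 in the combined cells, 1 in MC38-gated cells for free R848, 4 for free R848 and 1 between the forms in macrophage-gated cells, and 0 for free R848 and 2 between the forms in monocyte-gated cells, where DESeq2 gave Ifi44 no adjusted p. With 2 treatments only in the fit there were 0 in the combined cells, 1 in MC38-gated cells for free R848, 1 in macrophage-gated cells for medium R848-BPDs and 2 in monocyte-gated cells between the forms.

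A stricter gate gave 9 and 1 in DC-gated cells, 23, 1 and 15 in MC38-gated cells, and 3 and 2 for the MC38 class terms of medium R848-BPDs against saline and against free R848. Classes from clusters gave 3 in MC38-gated cells between the forms and 0 for the MC38 class term against saline. Equal cell numbers gave 2 in DC-gated cells and 3 and 2 in MC38-gated cells for medium R848-BPDs against saline and against free R848. At most 8% mitochondrial UMIs without doublets gave 2 in the combined cells. Chosen after seeing the data, macrophage-gated cells alone gave 15, monocyte-gated cells alone 5, 1 and 1, and mature DC-gated cells alone 1, and class terms against macrophage-gated cells gave 2 and 1 for MC38-gated and 1 for DC-gated cells. Without thinning, members with a higher share of cells were 31 (NK-gated, free R848), 32 and 26 (T-gated, medium R848-BPDs and free R848 against saline), 29 (combined cells, between the forms) and 26 (monocyte-gated, medium R848-BPDs against saline).

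Leaving out each tumor in turn, the counts ran for medium R848-BPDs against saline from 0 to 4 (combined), 2 to 25 (MC38-gated), 0 to 19 (macrophage-gated), 0 to 5 (monocyte-gated), 1 to 7 (DC-gated), 0 to 0 (T-gated and NK-gated). For free R848 they ran from 0 to 1 in MC38-, macrophage- and monocyte-gated cells and from 0 to 0 elsewhere, and between the forms from 2 to 23 (MC38-gated), 0 to 2 (macrophage-gated), 0 to 3 (monocyte-gated), 0 to 1 (NK-gated) and 0 to 0 elsewhere. The class terms against combined cells ran from 0 to 6, 0 to 0 and 0 to 8 (MC38-gated), 0 to 2 each (DC-gated), 0 to 2, 0 to 1 and 0 to 1 (T-gated) and 0 to 0 (NK-gated), and monocyte-gated against macrophage-gated from 2 to 27, 0 to 3 and 0 to 10.

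The replicate numbers were not used as pairs in the main fits. Deviations from group means in same-numbered tumors had median correlations of −0.08 to 0.01 over 7 pairs per class and at most 1 pair over 0.1. In groups this small such deviations are tied to each other, so the correlations cannot decide whether the numbers pair the tumors. With the replicate number as a block, 0 members were called in the combined cells and 2 in DC-gated cells for medium R848-BPDs against saline, and 2 in monocyte-gated cells between the forms. The cause of these changes was not tested. Medium R848-BPDs rest on 2 tumors, and the smallest change that could be detected in the 13 to 82 T-gated cells per tumor was not tested.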
